A study of Rattus norvegicus with 20 samples.

Results

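The circadian clock genes described here are 6 of the 30452 genes in the count table: Arntl (also called Bmal1, ENSRNOG00000014448), Per1 (ENSRNOG00000007387), Per2 (ENSRNOG00000020254), Per3 (ENSRNOG00000018413), Dbp (ENSRNOG00000021027) and Nr1d1 (ENSRNOG00000009329). They were chosen by ID as members of the clock, and the rule uses no measured value. All 6 passed the filter on low counts. Messenger RNA was measured in 20 bulk libraries of 3' transcript ends from the hearts of male rats, with 5 libraries each of right ventricle (RV) after saline, RV after monocrotaline (MCT), left ventricle (LV) after saline and LV after MCT. MCT, a toxin from plants, damages the vessels of the lung and serves as a rat model of pulmonary hypertension. It was given at 60 mg/kg to rats that had reached 250 g, and control rats received saline. For both treatments the labels give as end point a discomfort score of at least 7. They do not give the strain, the age, the day of death or the hour of the day at which a heart was taken.

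The clock is a transcription loop that runs in most cells, heart muscle cells included, with a period of about a day. The ARNTL protein, paired with CLOCK, switches on the Per genes, Nr1d1 and Dbp through DNA elements called E-boxes. PER proteins shut the ARNTL and CLOCK pair off, and NR1D1, a nuclear receptor also called REV-ERBalpha, represses Arntl through ROR elements. DBP carries the rhythm to output genes through D-boxes. In the rodent heart the transcripts of Arntl and Dbp are known to peak at roughly opposite times of day.

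The RefSeq promoter table of assembly GRCr8 held 7 windows for these genes, Nr1d1 with a pair of them, and all 6 genes were matched by symbol. The 250 bases before the annotated start are shown for the 4 windows that held a motif of the loop, because the proteins of the loop are known to bind such motifs. The motifs searched on both strands were CACGTG (E-box), CACGTT (an E-box variant), TATGTAA (part of the D-box) and TAGGTNA (the core of the ROR element). None of these motifs overlaps another in these windows, and the letters were chosen with the sequences in view. Matches are in capitals. Some RefSeq transcripts of Arntl and Per2 start further upstream.
Arntl, chr1:176766078-176766327, plus strand: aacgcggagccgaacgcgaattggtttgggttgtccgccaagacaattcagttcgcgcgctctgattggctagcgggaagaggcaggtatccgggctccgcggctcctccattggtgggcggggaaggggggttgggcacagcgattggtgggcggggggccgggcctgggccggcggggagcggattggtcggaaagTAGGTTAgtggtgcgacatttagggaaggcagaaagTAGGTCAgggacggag
Per2, chr9:99496994-99497243, minus strand: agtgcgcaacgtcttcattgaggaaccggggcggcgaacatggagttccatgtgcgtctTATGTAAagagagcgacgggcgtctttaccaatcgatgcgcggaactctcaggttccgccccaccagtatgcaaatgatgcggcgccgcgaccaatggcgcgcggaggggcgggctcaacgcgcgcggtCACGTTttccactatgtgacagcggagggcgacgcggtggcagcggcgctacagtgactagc
Nr1d1, outer start, chr10:84231813-84232062, minus strand: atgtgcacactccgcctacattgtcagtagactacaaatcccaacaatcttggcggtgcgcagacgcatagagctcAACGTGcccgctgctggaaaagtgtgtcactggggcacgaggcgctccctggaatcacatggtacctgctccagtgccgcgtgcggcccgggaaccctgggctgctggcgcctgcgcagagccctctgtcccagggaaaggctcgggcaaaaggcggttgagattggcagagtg
Nr1d1, inner start, chr10:84229455-84229704, minus strand: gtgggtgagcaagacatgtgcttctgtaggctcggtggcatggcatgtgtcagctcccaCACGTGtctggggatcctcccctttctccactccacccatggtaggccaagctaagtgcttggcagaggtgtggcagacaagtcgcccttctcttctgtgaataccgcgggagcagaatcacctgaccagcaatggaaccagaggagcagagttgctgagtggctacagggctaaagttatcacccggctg

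The Arntl window held 2 ROR element cores, beginning 52 and 16 bases before the start. The Per2 window held a D-box part 191 bases and an E-box variant 62 bases before its start. The outer Nr1d1 window held the E-box variant on the other strand, 174 bases before the start, and the inner one held an E-box at 191 bases. Of all 33469 windows of this length, 7.55% held the ROR element core, 4.07% the E-box variant, 2.52% the D-box part and 5.59% the E-box. The windows of Per1, Per3 and Dbp held none of these letters. A match describes the sequence and is no measure of binding.

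Values are CPM, the counts of a gene scaled to a library of one fixed size with edgeR's TMM factors. Library totals ran from 3272420 to 9227104 counts. An earlier analysis of these counts placed 2 MCT libraries with the saline ones by overall expression. They were replicate 4 of the RV and replicate 3 of the LV. That placing was not repeated here, and the values that moved most are also given without these libraries. In bulk tissue, fewer cells of a type and less RNA per cell cannot be told apart. The count table holds IDs without names. The names of the 6 genes were given with their IDs when the genes were chosen, and no table used here could check them, since 0 of the 47357 genes in the reference table carried an Ensembl ID. Cell type markers and 24 other clock genes listed by symbol, such as Clock, Cry1 and Nr1d2, were therefore not analysed here, and the ventricle labels were not checked against markers.

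Arntl, the activator of the loop, varied more than any other of the 6 genes. In RV saline replicates 1 to 5 it was at 71.1, 3.05, 39.2, 5.68 and 28.6 CPM. In LV saline replicates 1 to 5 it was at 53.0, 3.85, 45.3, 7.29 and 27.3 CPM. Replicates 2 and 4 were low and replicate 1 was high in both saline groups, although all of these rats received saline.

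After MCT, Arntl was at 84.2, 32.5, 56.0, 1.75 and 31.5 CPM in RV replicates 1 to 5. In LV MCT replicates 1 to 5 it was at 61.2, 30.4, 44.2, 23.0 and 30.0 CPM. The lowest of all 20 values was RV MCT replicate 4, which rested on 5 counts (exact 95% Poisson interval 1.62 to 11.7 counts, which covers counting error only). The other 9 MCT libraries lay between 23.0 and 84.2 CPM. Of these, RV MCT replicate 1 was above the highest RV saline library, at 71.1 CPM. LV MCT replicate 1 was above the highest LV saline library, at 53.0 CPM. The rest were inside the saline range of their ventricle. The MCT and saline groups overlapped in both ventricles.

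**Figure D1:**
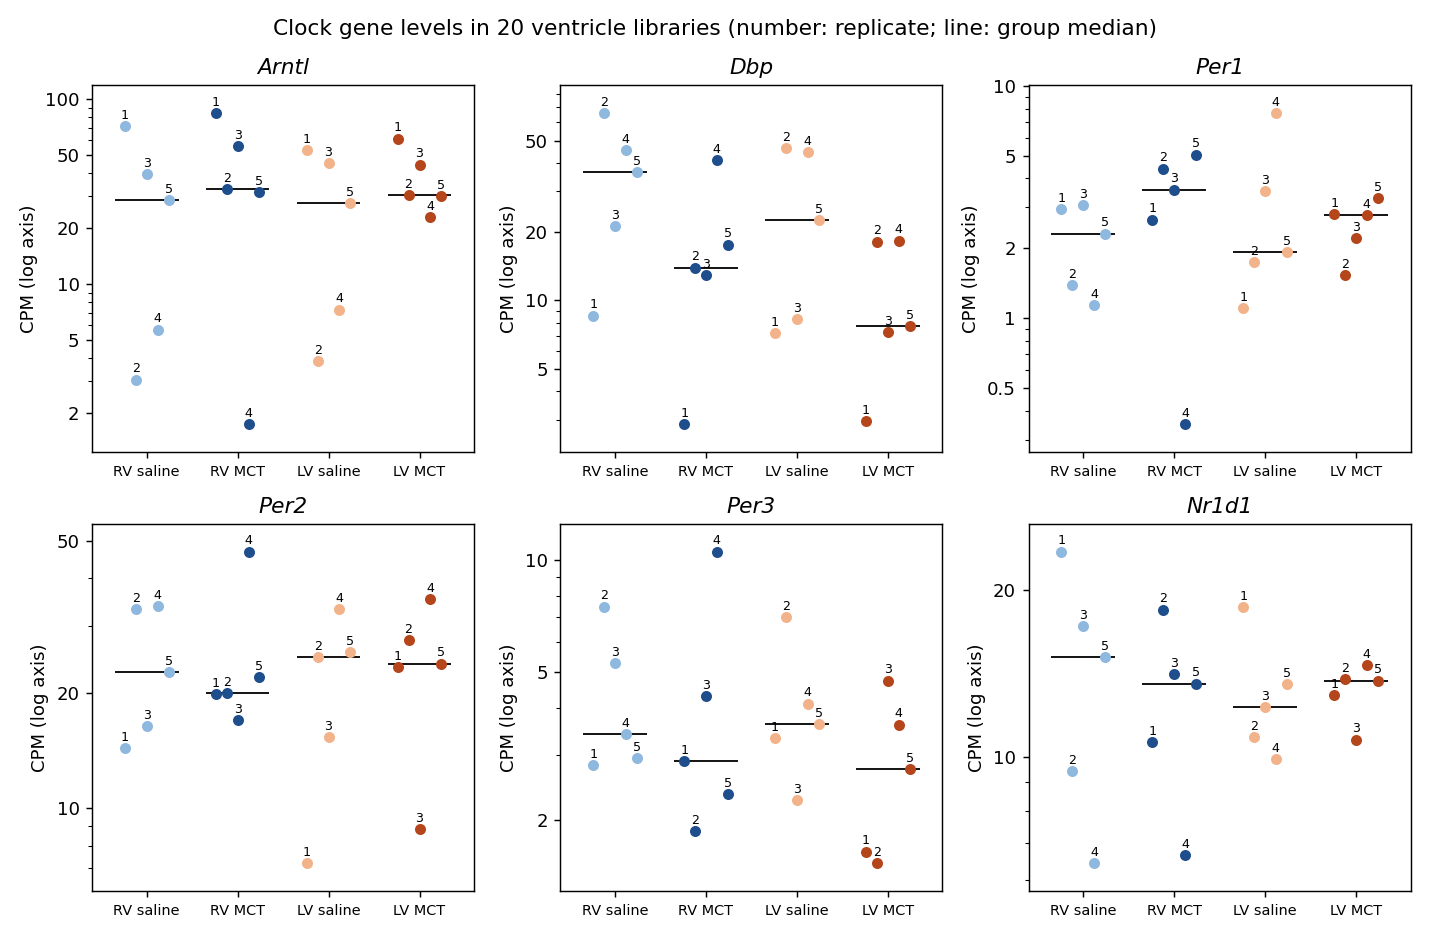
Level of each clock gene in CPM on a log axis, by group, with 1 point per library, the replicate number above it and a line at the group median. Arntl was under 8 CPM in saline replicates 2 and 4 of both ventricles and in RV MCT replicate 4, and Dbp was highest in those same 5 libraries.

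Dbp, a transcription factor of the clock's output, ran the other way. It was at 8.59, 66.0, 21.2, 45.2 and 36.5 CPM in RV saline replicates 1 to 5. In LV saline replicates 1 to 5 it was at 7.21, 46.2, 8.30, 44.5 and 22.5 CPM. Replicates 2 and 4, low for Arntl, were the highest for Dbp in both groups.

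In RV MCT replicates 1 to 5 Dbp was at 2.88, 13.9, 12.9, 41.0 and 17.5 CPM. In LV MCT replicates 1 to 5 it was at 2.97, 18.1, 7.27, 18.3 and 7.69 CPM. MCT replicate 1, the highest for Arntl, was the lowest of all 20 libraries for Dbp in the RV and the next lowest in the LV. RV MCT replicate 4 again lay with saline replicates 2 and 4. The groups overlapped in both ventricles.

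The Per genes encode the repressors of the loop. Per2 was at 14.4, 33.3, 16.4, 33.9 and 22.7 CPM in RV saline replicates 1 to 5. In LV saline replicates 1 to 5 it was at 7.21, 24.9, 15.3, 33.3 and 25.6 CPM. Replicates 1 and 3, which were high for Arntl, were low for Per2 in both ventricles.

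After MCT, Per2 was at 19.9, 20.1, 17.0, 46.9 and 22.1 CPM in RV replicates 1 to 5. In LV MCT replicates 1 to 5 it was at 23.4, 27.5, 8.85, 35.3 and 23.9 CPM. Replicate 4 was the highest of its group in both ventricles, and the groups overlapped.

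Per3 was weakly expressed, with 8 to 42 counts per library. It ran from 2.82 to 7.49 CPM (median 3.41) in RV saline and from 1.87 to 10.5 CPM (median 2.88) in RV MCT. In LV saline it ran from 2.26 to 7.00 CPM (median 3.62), and in LV MCT from 1.54 to 4.74 CPM (median 2.75). Its highest values were in RV MCT replicate 4 and in saline replicate 2 of both ventricles, at 10.5, 7.49 and 7.00 CPM.

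Per1 had between 1 and 41 counts per library, so single values carry a large counting error. It ran from 1.14 to 3.06 CPM (median 2.32) in RV saline and from 0.350 to 5.07 CPM (median 3.58) in RV MCT. In LV saline it ran from 1.11 to 7.66 CPM (median 1.93), and in LV MCT from 1.54 to 3.30 CPM (median 2.79). The lowest value, in RV MCT replicate 4, rested on 1 count.

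Nr1d1, the repressor of Arntl, varied least. In RV saline replicates 1 to 5 it was at 23.5, 9.43, 17.3, 6.44 and 15.1 CPM. In LV saline replicates 1 to 5 it was at 18.7, 10.9, 12.3, 9.90 and 13.5 CPM. As for Arntl, replicate 1 was high and replicates 2 and 4 were low in both saline groups.

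In RV MCT replicates 1 to 5 Nr1d1 was at 10.6, 18.5, 14.1, 6.65 and 13.6 CPM. The LV MCT libraries lay close together, at 12.9, 13.8, 10.7, 14.6 and 13.7 CPM. In the reference annotation Nr1d1 overlaps Thra, a thyroid hormone receptor gene, over 1061 bases, and Per2 overlaps an uncharacterized locus. Since the strand setting of the counting is not given in the sources used here, reads in these overlaps cannot be told apart.

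MCT against saline compares the levels of the clock transcripts in each ventricle. The hour at which a heart was taken is not given, so it could not be accounted for in this comparison. None of the 6 genes passed the test in the RV, where 0.274% of the 10929 genes tested did (edgeR quasi-likelihood test, adjusted p under 0.05). None passed in the LV either, where 9.52% of genes did. The RV count over all genes rose from 30 to 707 when replicate 4 of RV MCT was left out, and held 0 clock genes. At an unadjusted p under 0.05, the clock genes numbered 0 in each ventricle, against 17.5% of all genes in the RV and 25.3% in the LV. DESeq2 and limma voom also called 0 of the 6 in each ventricle. Over all genes they called 402 and 275 in the RV, and 1421 and 2911 in the LV. No clock gene separated the groups without overlap, which 2.38% of all genes did in the RV and 7.04% in the LV. With 6 genes, counts of 0 say little beside these shares. The median SE of the log2 fold change for the 6 genes was 0.45 in the RV and 0.46 in the LV. It was 0.24 and 0.25 over all genes.

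Dbp had the lowest unadjusted p of the 6 genes in both ventricles. In RV MCT it averaged 17.6 ± 14.1 CPM (SD, n = 5) and in RV saline 35.5 ± 22.1 CPM. The log2 fold change was -1.04 (SE 0.62, 95% confidence interval -2.34 to 0.25, edgeR adjusted p = 0.41). In LV MCT it averaged 10.9 ± 6.93 CPM and in LV saline 25.7 ± 18.9 CPM. Here the log2 fold change was -1.22 (SE 0.64, interval -2.55 to 0.11, edgeR adjusted p = 0.24). Without RV MCT replicate 4 the RV value was -1.56 (edgeR adjusted p = 0.14), and without LV MCT replicate 3 the LV value was -1.12 (edgeR adjusted p = 0.29). With limma voom the LV value was -0.49 (adjusted p = 0.58). The Dbp value stayed below 0 in all 21 alternatives of each ventricle. It passed the test in 1 of those for the LV, the replicate block, at -1.17 (edgeR adjusted p = 0.029). In that fit 356 of 9980 genes passed. No label pairs MCT with saline libraries by number.

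Arntl averaged 41.2 ± 30.8 CPM (SD, n = 5) in RV MCT and 29.5 ± 27.8 CPM in RV saline. The log2 fold change was 0.47 (SE 0.73, 95% confidence interval -1.04 to 1.99, edgeR adjusted p = 0.82). In LV MCT it averaged 37.8 ± 15.2 CPM and in LV saline 27.3 ± 22.0 CPM. Here the log2 fold change was 0.45 (SE 0.73, interval -1.07 to 1.98, edgeR adjusted p = 0.76). It was 0.18 with LV MCT replicate 1 left out and 0.85 with LV saline replicate 1 left out. As a fold, the RV interval reached from 0.488 to 3.96, so neither a fall to about that level nor a rise to the upper bound could be told from no change. Leaving out replicate 1 of RV MCT moved the RV value to 0.057. It was 0.77 when replicate 4 of that group was left out and 1.12 when replicate 1 of RV saline was.

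The other 4 genes had log2 fold changes in the RV of 0.63 for Per1 (SE 0.47), 0.04 for Per2 (SE 0.38), -0.05 for Per3 (SE 0.43) and -0.16 for Nr1d1 (SE 0.28). In the LV they were -0.36 for Per1 (SE 0.47), 0.18 for Per2 (SE 0.38), -0.53 for Per3 (SE 0.45) and 0.01 for Nr1d1 (SE 0.28). Without RV MCT replicate 4 the RV values of Per2 and Per3 were -0.29 and -0.55. The lowest edgeR adjusted p among these was 0.54 in the RV and 0.51 in the LV. Nr1d1 had the narrowest intervals, which spanned -0.74 to 0.42 for the RV and -0.58 to 0.60 for the LV. Over the 6 genes the median log2 fold change was -0.01 in the RV and -0.18 in the LV, beside 0.01 and 0.03 over all genes tested.

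**Figure D2:**
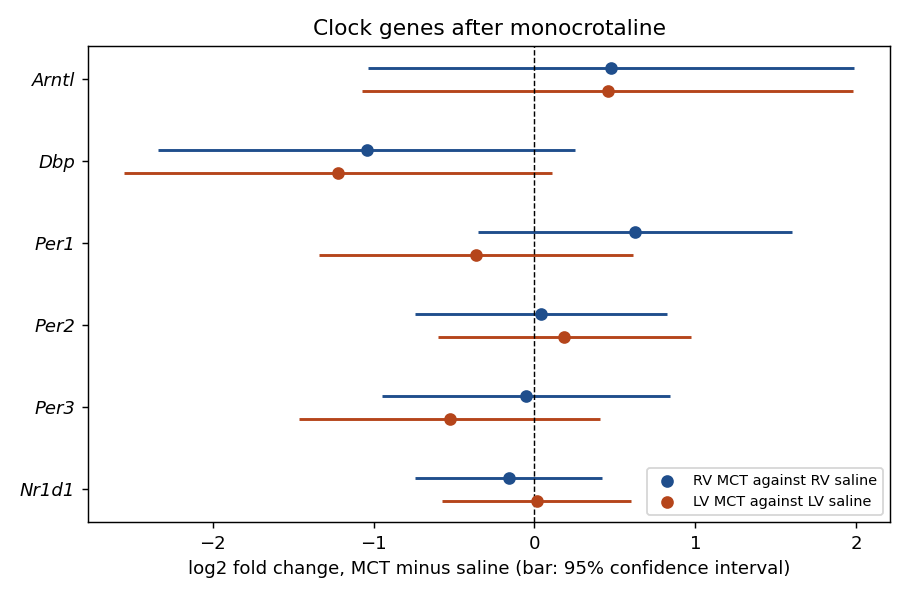
Log2 fold change of each clock gene, MCT minus saline, with its 95% confidence interval from the edgeR fit, for RV and LV. All 12 intervals include 0, and the widest are those of Arntl.

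The code in the description of each library reads as a date, in month 5 or 6 for replicates 1 to 3 of each group and in month 11 for replicates 4 and 5. MCT and saline libraries shared a full date only for MCT replicate 4 with saline replicates 4 and 5. Every other date held MCT or saline libraries alone, so the month does not account for the day. For Dbp the log2 fold change was -1.61 in the month 5 and 6 libraries and -0.51 in the month 11 libraries of the RV. In the LV the Dbp values were -1.10 and -1.32. For Arntl they were 0.59 and 0.02 in the RV, and 0.36 and 0.62 in the LV. No clock gene passed the test within either set of months. Over all genes, 188 in the RV and 0 in the LV passed in months 5 and 6, and 0 and 243 in month 11. With month as a term in the fit the Dbp values were -1.15 and -1.20 in the RV and the LV.

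The response of the 6 genes was compared between ventricles. The difference of the log2 fold changes, RV minus LV, ran from -0.17 for Nr1d1 to 0.99 for Per1 (SE 0.67), and none passed the test (edgeR, adjusted p = 0.9999 for each of the 6). The Per1 difference was 0.32 with LV saline replicate 4 left out and 0.41 with limma voom. It was 0.62 with RV and LV libraries of the same number and treatment as a block. Of all genes 0% passed. For Arntl the difference was 0.02, with a 95% confidence interval from -2.13 to 2.17, which is too wide to show that the ventricles responded alike. The median SE of this difference was 0.64 for the 6 genes and 0.35 for all genes.

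After saline, none of the 6 genes passed the test of RV against LV (edgeR, adjusted p from 0.84 to 0.99), where 0.0732% of all genes passed. Dbp had a log2 fold change of 0.47 (SE 0.61), RV over LV, and Per1 of -0.58 (SE 0.48). Dbp was higher in the RV in all 5 saline pairs of a number, by 0.24, 0.51, 1.31, 0.025 and 0.69 log2 units, as 7.59% of all genes were. With the number as a block its value was 0.53 (edgeR adjusted p = 0.18), and 165 genes passed in place of 8, with 0 clock genes among them. After MCT none passed either, and 0% of all genes did. The Dbp value was then 0.64 (SE 0.64, interval -0.69 to 1.98), but it was 0.13 when replicate 4 of RV MCT was left out, 0.032 when replicate 3 of LV MCT was left out as well, and 0.10 with limma voom. The Per3 value was 0.57 (SE 0.44), and 0.28 with both of these libraries left out. With the number as a block the Dbp and Per3 values after MCT were 0.58 and 0.51. DESeq2 and limma voom called 0 of the 6 genes in these 3 comparisons. Over all genes they called 1 and 1 for the difference of responses, 88 and 125 after saline, and 0 and 0 after MCT. At an unadjusted p under 0.05 the clock genes numbered 0. Of all genes 2.79% reached that for the difference of responses, 8.32% after saline and 1.86% after MCT. With shares this small, 0 of 6 genes says little.

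For Arntl the order from high to low was RV MCT, LV MCT, RV saline and LV saline, at 41.2, 37.8, 29.5 and 27.3 CPM, and no neighbours in it differed beyond their SDs. For Dbp it was RV saline, LV saline, RV MCT and LV MCT, at 35.5, 25.7, 17.6 and 10.9 CPM, again with neighbours inside their SDs.

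Arntl and Dbp had a large spread among libraries of 1 group. The SD of log2 CPM within groups was 1.64 for Arntl, the 7th highest of 10929 genes, beside a median of 0.383 over all genes. For Dbp it was 1.19, the 78th highest. For Per1, Per2, Per3 and Nr1d1 it was 0.83, 0.69, 0.67 and 0.49, all above the median, with ranks of 537, 1114, 1244 and 3246. Among saline libraries alone, Arntl ranked 6th with an SD of 1.75 and Dbp 55th with 1.19. Among MCT libraries alone, Arntl ranked 46th with 1.53 and Dbp 168th with 1.19, while Nr1d1, at 0.397, ranked 5655th and was below the all-gene median of 0.406.

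edgeR's biological coefficient of variation, which sets counting noise aside, was 0.807 for Arntl and 0.664 for Dbp, against a median of 0.234. It was 0.453 for Per1, 0.407 for Per2, 0.426 for Per3 and 0.297 for Nr1d1. Without RV MCT replicate 4 and LV MCT replicate 3 the within-group SD of Arntl was 1.39, the 13th highest, and that of Dbp 1.18, the 41st highest. These ranks describe the libraries and carry no test.

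**Figure D3:**
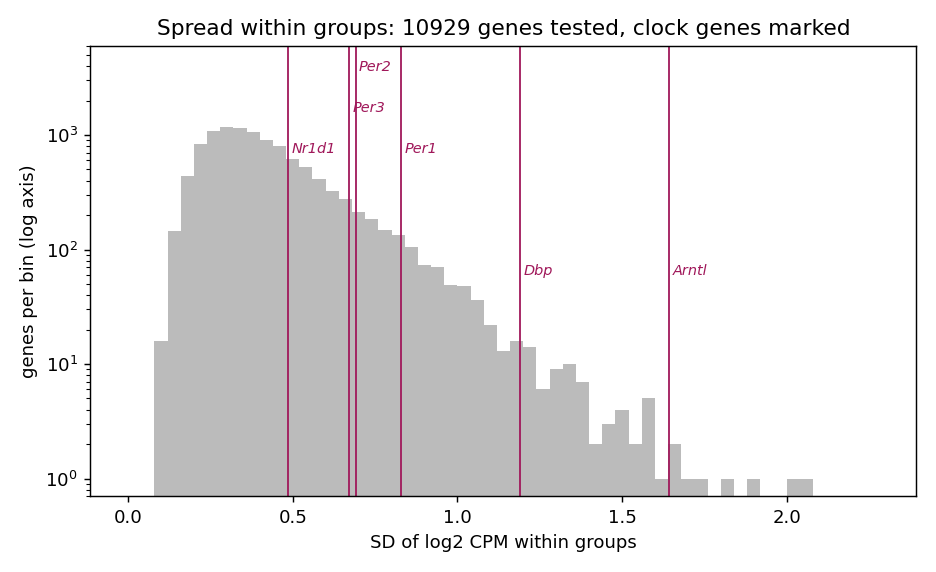
Histogram of the within-group SD of log2 CPM over the 10929 genes tested (number of genes per bin on a log axis), with a line for each clock gene. Arntl at 1.64 and Dbp at 1.19 lie in the right tail, and Nr1d1 at 0.49 lies nearest the bulk.

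The spread of Arntl and Dbp was ordered. Arntl showed a gap between its 5 lowest libraries, at up to 7.29 CPM, and the next, LV MCT replicate 4 at 23.0 CPM. These 5 libraries, saline replicates 2 and 4 of both ventricles and RV MCT replicate 4, were also the 5 highest for Dbp, from 41.0 to 66.0 CPM. Of the 5, 4 were among the 5 highest for Per2 and 4 among the 5 lowest for Nr1d1. For Per3, 3 were among the 5 highest, and for Per1, 3 were among the 5 lowest. Another of the 5, LV saline replicate 4, was the highest of all 20 libraries for Per1, at 7.66 CPM.

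The ratio of Arntl to Dbp counts within a library does not depend on library scaling. It ran from 0.0427 in RV MCT replicate 4 and 0.0462 in RV saline replicate 2 to 20.6 in LV MCT replicate 1 and 29.2 in RV MCT replicate 1. In saline replicate 4 it was 0.126 in the RV and 0.164 in the LV. In saline replicate 1 it was 8.28 and 7.36.

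**Figure D4:**
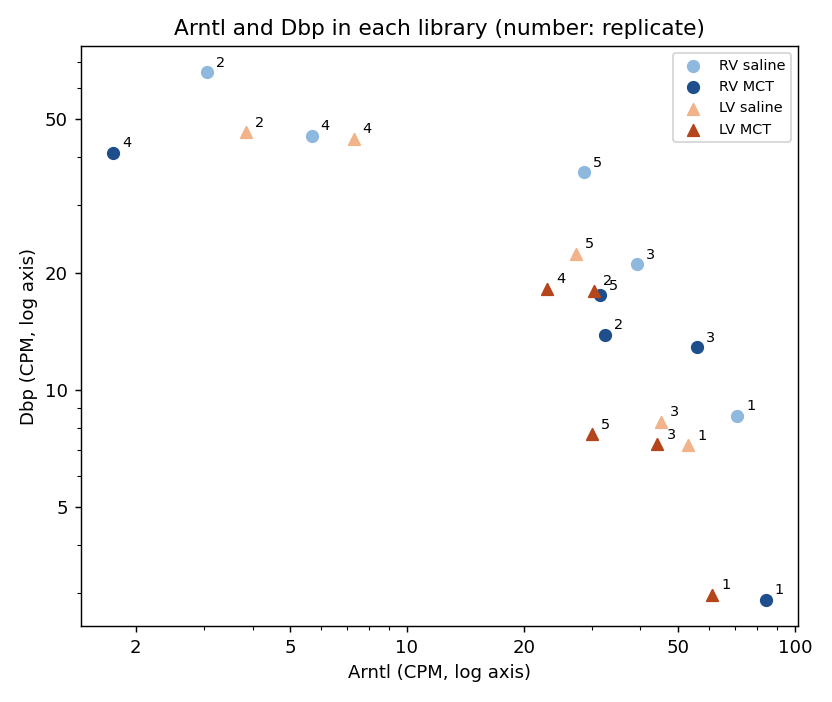
Dbp against Arntl in each of the 20 libraries, both in CPM on log axes, with the replicate number beside each point. The 5 libraries under 8 CPM of Arntl lie at 41.0 CPM of Dbp or more, and MCT replicate 1 of both ventricles lies at the opposite corner.

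Across the 20 libraries, log2 CPM of Arntl and Dbp were correlated with a Pearson r of -0.84 and a Spearman rho of -0.88. Among the 10928 other genes, Arntl was the gene with the lowest correlation with Dbp, and Dbp had the 6th lowest with Arntl. The Pearson value was -0.83 in the RV libraries, -0.89 in the LV libraries, -0.89 after saline, -0.78 after MCT and -0.85 without RV MCT replicate 4 and LV MCT replicate 3. With group means removed it was -0.85. The libraries share one scaling and possibly animals, and their depths differ, so these correlations are given as a description of 20 points.

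Arntl also ran against Per2 (Pearson -0.69) and Per3 (-0.69) and along with Nr1d1 (0.72). Per2 had the 35th lowest and Per3 the 32nd lowest correlation with Arntl among the 10928 other genes. Nr1d1 had the 25th highest. Per2 and Dbp ran together (0.59), and Per2 ran against Nr1d1 (-0.57). The Spearman values were -0.83, -0.51 and 0.48 for Arntl with Per2, Per3 and Nr1d1. They were 0.69 for Per2 with Dbp and -0.52 for Per2 with Nr1d1. These pairs kept their sign in each ventricle but not their size. Arntl with Per2 was at -0.94 in the RV and -0.52 in the LV. Per2 with Nr1d1 was at -0.89 in the RV, -0.30 in the LV and -0.26 after MCT. Per1 had no steady relation: its correlation with Arntl was 0.84 in the RV and -0.28 in the LV, and over all libraries it fell from 0.46 to 0.24 without RV MCT replicate 4 and LV MCT replicate 3. All 15 pairs of the 6 genes were computed.

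Within a treatment, each RV library has an LV library with its number and its description code, although no label says that such a pair is one heart. The ratio of RV to LV for Arntl lay between 0.779 and 1.38 in 9 of the 10 pairs. This closeness was not particular to Arntl: its absolute log2 difference was below the median of all genes in 5 of the 10 pairs, and 14.4% of all genes stayed as close in at least 9 pairs. In MCT replicate 4 it was 0.0761, with 1.75 CPM in the RV and 23.0 CPM in the LV. In that pair Per1 and Nr1d1 were also lower in the RV, with ratios of 0.126 and 0.454. Dbp, Per2 and Per3 were higher there, with ratios of 2.24, 1.33 and 2.91.

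Over the 10 pairs the Pearson correlation of RV with LV log2 CPM was 0.90 for Dbp, 0.80 for Arntl, 0.78 for Per2, 0.56 for Per3, 0.54 for Nr1d1 and -0.29 for Per1. The median over all 10929 genes was 0.21, and Dbp ranked 23rd, Arntl 187th and Per2 264th. Without the pair of MCT replicate 4 the value for Arntl was 0.99 and that for Nr1d1 0.80. With treatment means removed it was 0.87 for Dbp, 0.82 for Arntl and 0.78 for Per2, beside a median of 0.07 over all genes. Points of a pair share a treatment, a code and possibly an animal, and the values are a description.

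Over all 6 genes taken with equal weight, the nearest LV library was the one of the same number for 3 of the 10 RV libraries, namely MCT replicate 1 and saline replicates 2 and 5. For RV MCT replicate 4 the nearest LV library was saline replicate 2, at a root mean square distance of 0.92 log2 units, against 1.89 from LV MCT replicate 4. The date in the code of RV MCT replicate 4 is also that of saline replicates 4 and 5, in which Arntl was at 5.68 and 28.6 CPM in the RV. Whether this library matches its labels was not tested.

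**Figure D5:**
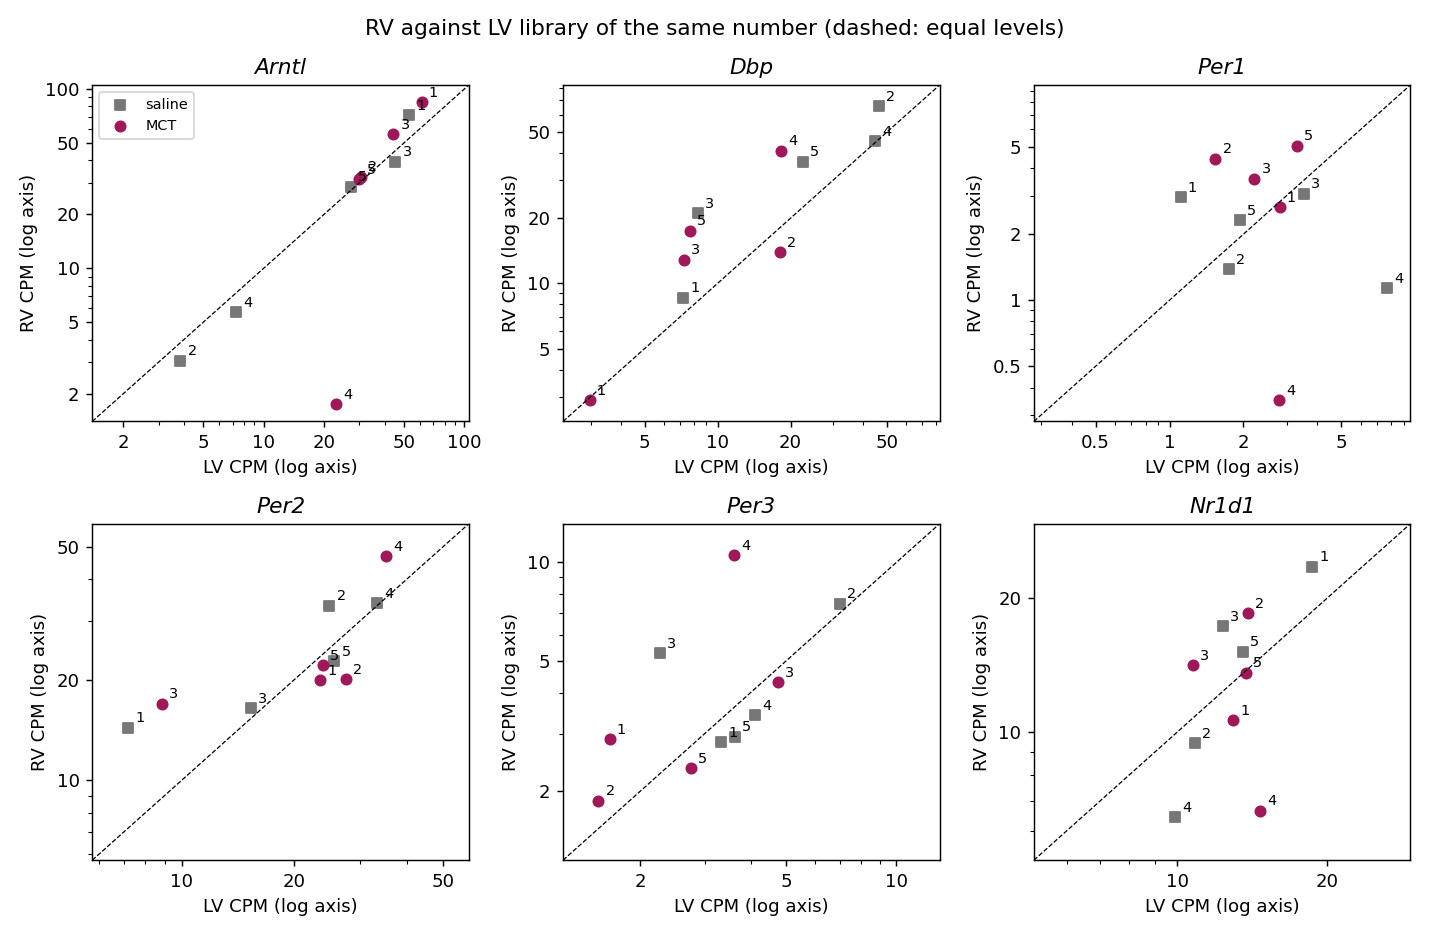
Level of each clock gene in the RV library against the LV library of the same number, in CPM on log axes, for 5 saline and 5 MCT pairs, with the replicate number beside each point and a dashed line at equal levels. Arntl lies along the line in 9 pairs and far below it in MCT replicate 4.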

How the data were processed

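The 20 ventricle libraries were analysed from the deposited raw counts of reads per Ensembl gene. Per the labels' protocols they were QuantSeq 3' libraries read as 150 bp pairs. Per the submitters' processing notes the tools were STAR 2.7.10a and HTSeq 0.11.3, and mRatBN7.2 and rn6 are both listed as builds. Strand setting and annotation release: not given in the sources used here. Groups and replicate numbers were read from the sample titles. Separate animals per group are not stated, so the p-values may reflect technical spread only.

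All genes were fitted together with edgeR 4.0.16 in R 4.3.3 (TMM, filterByExpr, robust quasi-likelihood fit of 4 group means, Benjamini-Hochberg adjustment over 10929 genes, threshold 0.05), after tests on simulated data. SEs came from the F statistic, and correlations used log2 CPM with a prior count of 2. As alternatives, RLE scaling, 2 other filters, DESeq2 1.42.0, limma 3.58.1 voom with quality weights, month (as a term or in separate fits), fits of the compared groups alone, a replicate block and the omission of each library were tried, and, chosen after seeing the data, the omission of RV MCT replicate 4 with LV MCT replicate 3. All 6 genes were to be described, with 24 other clock genes and cell type markers that could not be matched to IDs. Genes, lists and alternatives were chosen with earlier results of these data known.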

Additional observations from a re-analysis of the deposited data

Results flagged for a closer look

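In each of the 4 groups and for each of the 6 genes the 5 CPM values were searched for a library far from the others, 24 sets in all. Chance picks about 1 set in 20, and 2 were found, both in RV MCT replicate 4. Per2 was at 46.9 CPM in that library, with a gap to the next library that took 0.83 of the group's range. Per3 was at 10.5 CPM, with a gap of 0.72 of the range. The picks depend on the scale: on log2 CPM, 3 sets were found, all in that same library, namely Per2 (gap 0.74 of the range), Arntl (0.74) and Per1 (0.71), while Per3 (0.54) was not.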

How the results depend on the processing

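The count of clock genes called was 0 in all 5 comparisons, and it was 0 in 113 of the 114 alternative counts. The exception was the replicate block in the LV, where 1 of the 6 genes, Dbp, passed with a log2 fold change of -1.17 (edgeR adjusted p = 0.029). That fit called 356 of 9980 genes. As a check of pairing, deviations from the group means were correlated between libraries that share a number. Between MCT and saline, r lay between -0.32 and 0.22 for the LV and between -0.23 and 0.21 for the RV. Between RV and LV, it lay between -0.18 and 0.59 for saline and between -0.35 and 0.24 for MCT. The range for RV and LV after MCT was similar to those between MCT and saline, so this check cannot decide which libraries are paired. No label pairs MCT with saline libraries, and the numbers are not taken to do so. RV and LV libraries of a number share a date code, so some of their blocked values stand beside those comparisons, and the block changed no other call. With the block the Arntl sign turned for the difference of responses (-0.18) and for RV against LV after saline (-0.0018) and after MCT (-0.22). Of 684 single values 79 had the opposite sign to the main fit, all of them without a call. For each, the cause was not tested.

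With limma voom the turned values were -0.076 for Per2 in the RV, 0.22 for Per1 in the LV, -0.68 for Dbp in the difference of responses, -0.26 for Arntl in RV against LV after saline and -0.45 for Per2 in RV against LV after MCT. With month as a term they were -0.10 for Arntl in the difference of responses and -0.0039 in RV against LV after MCT. In the month 5 and 6 libraries they were -0.14 for Per2 in the RV, 0.075 for Per1 and -0.18 for Nr1d1 in the LV, -0.51 for Dbp in the difference of responses, 0.25 for Per1 in RV against LV after saline, and -0.084 for Per2 and 0.22 for Nr1d1 after MCT. In the month 11 libraries they were 0.92 for Per3 in the RV, -0.60 for Arntl and 0.25 for Per2 in the difference of responses, -0.063 for Per2, -0.29 for Per3 and -0.10 for Nr1d1 in RV against LV after saline, and -0.58 for Arntl after MCT. Without RV MCT replicate 4 and LV MCT replicate 3, left out after seeing the data, they were -0.29 for Per2 in the RV, -0.43 for Dbp in the difference of responses, and -0.48 for Per2 and 0.050 for Nr1d1 in RV against LV after MCT.

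Leaving out 1 library at a time turned the sign of these values. For MCT in the RV the values ran from -0.29 to 0.20 for Per2, from -0.55 to 0.21 for Per3 and from -0.35 to 0.10 for Nr1d1. For MCT in the LV the values ran from -0.60 to 0.31 for Per1, from -0.045 to 0.42 for Per2 and from -0.078 to 0.18 for Nr1d1. For the difference of responses the values ran from -0.38 to 0.69 for Arntl, from -0.47 to 0.086 for Per2, from -0.015 to 0.74 for Per3, from -0.34 to 0.52 for Dbp and from -0.36 to 0.11 for Nr1d1. For RV against LV after saline the values ran from -0.54 to 0.51 for Arntl, from -0.82 to 0.10 for Per1, from -0.047 to 0.42 for Per2, from -0.17 to 0.34 for Per3 and from -0.13 to 0.33 for Nr1d1. For RV against LV after MCT the values ran from -0.27 to 0.43 for Arntl, from -0.29 to 0.24 for Per2 and from -0.20 to 0.11 for Nr1d1.

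The calls over all genes also moved: 30 in the RV and 1040 in the LV became 402 and 1421 with DESeq2, 275 and 2911 with limma voom, 18 and 714 without a filter, 0 and 827 with the compared groups alone, 19 and 982 with month as a term, 188 and 0 in months 5 and 6, 0 and 243 in month 11, and 0 and 356 with the block. Leaving out 1 library gave 0 to 707 (RV, highest without RV MCT replicate 4) and 331 to 1699 (LV, lowest without LV MCT replicate 5, highest without LV MCT replicate 3), and leaving out those replicates 4 and 3 together gave 1076 and 2016. For RV against LV after saline, 8 became 13 with RLE, 12 with month as a term, 44 without these 2 libraries, 0 to 11 with 1 library left out, 80 with the saline groups alone, 88 with DESeq2, 125 with limma voom and 165 with the block. Depth limits Per1 and Per3 most, since they had 1 to 41 and 8 to 42 counts per library.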
